A study of Ciona robusta with 9 samples.

Results

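Mrf, Snail and 3 Tbx6-related genes, regulators of the tail muscle of the ascidian tadpole, were followed in whole embryos that carried the notochord factor Bra (Brachyury) on a plasmid. They are 5 of the 15284 gene models in the deposited tables, taken by identifier: KH.C14.307 for Mrf, KH.C3.751 for Snail, and KH.S654.3, KH.S654.2 and KH.S654.1 for Tbx6-r.b, Tbx6-r.c and Tbx6-r.d. Neither the tables nor the RefSeq gene table used here pairs these identifiers with names, so the names are an assumption that the files could not check. The RefSeq table, with 21486 genes, matched 0 of the identifiers. A list of 32 muscle symbols could therefore not be placed on the tables either, and the muscle label was not checked against muscle structural genes.

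In Ciona, Tbx6-related genes encode T-box transcription factors that act early in the tail muscle lineage, and Mrf is the animal's MyoD-family factor, a basic helix-loop-helix regulator of muscle differentiation. Snail encodes a zinc-finger repressor that is active in tail muscle, where it is known to keep Bra off. Bra itself is a T-box factor that directs notochord fate, and the question set by the design is what happens when it is made in other tissues.

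The embryos were Ciona robusta, a sea squirt, electroporated as dechorionated fertilized eggs, grown at 21 °C in artificial seawater and collected at Hotta stage 19.5, with 400 embryos per sample. Control embryos carried Bra>GFP, in which regulatory DNA of Bra drives green fluorescent protein. The other groups carried Etr1>Venus-Bra, which uses regulatory DNA of the neural gene Etr1, or Tbx6-r.b>Venus-Bra, which uses regulatory DNA of the muscle gene Tbx6-r.b. These are called Etr1>Bra and Tbx6-r.b>Bra, as in the sample titles, and each of the 3 groups had 3 libraries. All groups thus carried a plasmid, and the control differs from the Bra plasmids in both the regulatory DNA and the protein. None of the groups had the neural or muscle regulatory DNA joined to a protein other than Bra, so an effect of Bra and one of that DNA cannot be told apart. The replicates are described as biological, but no label ties them to separate batches of eggs. The p-values therefore speak of the spread among these libraries, part of which may be technical.

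Libraries held 9043181 to 10399304 reads on genes. The deposited values are read counts normalized to library size within each of the 2 tables, 1 per Bra plasmid, and the same 3 control libraries stand in both. Control values therefore differ slightly between the tables, and the comparisons with control share their controls. For values across all 9 libraries, whole reads were recovered and scaled together. For KH.C3.751 this shifted a library by −1.64% to 0.0718% from the deposited value. The single genes held for notochord and nervous system also differed between libraries. In normalized counts scaled together, KH.S1404.1, held for Bra, ran from 299.9 to 353.4 in control. It ran from 423.4 to 554.6 in the neural-driven and from 320.5 to 467.7 in the muscle-driven group. KH.C6.128, held for Etr1, ran from 3850 to 3945, 1403 to 3739 and 3361 to 4314 in the same order of groups. With the replicate block explained below, KH.S1404.1 was higher with Etr1>Bra than in control (limma adjusted p = 0.0436). With that block KH.C6.128 was higher with Tbx6-r.b>Bra than with Etr1>Bra (limma adjusted p = 0.000717). Without the block neither difference passed (limma adjusted p = 0.287 for KH.S1404.1). The blocked fit between the plasmids pooled the spread over genes of like level. The uneven pairs of KH.C6.128 (log2 changes of 0.14, 0.74 and 1.26) therefore do not enter its p. KH.S1404.1 was not called with Tbx6-r.b>Bra against control (limma adjusted p = 0.852 with the block). For KH.C6.128, every neural-driven library lay below every control, with a log2 change of −0.71. That change missed the threshold (limma adjusted p = 0.0849 with the block, 0.69 without). In the blocked fit of all 9 libraries it passed (limma adjusted p = 0.0198). The muscle-driven group had a log2 change of 0.0011 from control in KH.C6.128. The difference between the plasmids thus lay on the neural-driven side. Both Bra plasmids encode Venus-Bra, so reads of the plasmid and of the embryo's own gene cannot be told apart in KH.S1404.1. Their part in the results below was not tested.

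Among the 5 genes, Snail was lower with Tbx6-r.b>Bra than with control, past the threshold when libraries of the same replicate number were compared in pairs and not otherwise. Mrf stood lower with Tbx6-r.b>Bra than with either other plasmid, but passed no test adjusted over all genes. With Etr1>Bra neither gene passed a test. The Tbx6-r models had few reads in every group, and no change was detectable in them at these read counts.

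Mrf was examined first. In the table with Etr1>Bra, KH.C14.307 stood at 1027, 1446 and 1513 normalized counts in control replicates 1, 2 and 3. With Etr1>Bra it stood at 1360, 1486 and 1373. The groups overlapped, and control replicate 1 was the lowest of these 6 libraries. In the table with Tbx6-r.b>Bra, the controls stood at 1018, 1430 and 1498, and the Tbx6-r.b>Bra libraries at 916.5, 1128 and 941.9. Here too the groups overlapped, through control replicate 1, which lay below Tbx6-r.b>Bra replicate 2.

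With Tbx6-r.b>Bra the mean of Mrf was 995.5 ± 116 against 1315 ± 260 in control (SD, n = 3 each), 24.3% lower. Its log2 change, on the scale of log2(normalized count + 1), was −0.39 ± 0.17 (standard error, 95% interval −0.76 to −0.02) and did not pass limma's test over all genes (Benjamini-Hochberg adjusted p = 1, unadjusted p = 0.0424). When a block for the replicate number set each library against its numbered control, it still missed the threshold of 0.05 (limma adjusted p = 0.074). Mrf was lower than its numbered control in 3 of 3 pairs, by log2 changes of −0.15, −0.34 and −0.67. Of all 11445 genes tested, 12.8% were lower in all 3 pairs. Without control replicate 1, the low control, the log2 change was −0.56 (limma adjusted p = 0.319).

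With Etr1>Bra the mean of Mrf was 1407 ± 69.5 against 1329 ± 263 in control (SD, n = 3 each). The log2 change of 0.10 ± 0.16 (95% interval −0.26 to 0.46) did not pass the test (limma adjusted p = 1, and 0.77 with the replicate block). The pairs did not move one way, with log2 changes of 0.40, 0.04 and −0.14. Without control replicate 1 the log2 change was −0.07 (limma adjusted p = 1), so 1 control library decides its sign.

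Snail was examined next. In the table with Etr1>Bra, KH.C3.751 stood at 1925, 1813 and 1984 in control replicates 1, 2 and 3. With Etr1>Bra it stood at 2086, 1730 and 1595. The Etr1>Bra libraries reached both above and below all controls. In the other table the controls stood at 1907, 1793 and 1965, and the Tbx6-r.b>Bra libraries at 1526, 1322 and 1130. All 3 Tbx6-r.b>Bra libraries lay below all 3 controls, as they did for 3.1% of the 11445 genes tested.

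With Tbx6-r.b>Bra the mean of Snail was 1326 ± 198 against 1888 ± 87.4 in control (SD, n = 3 each), 29.8% lower. The log2 change was −0.52 ± 0.14 (95% interval −0.83 to −0.21), which without the block did not pass the test (limma adjusted p = 0.251). Over the alternatives without the block that keep all libraries, the adjusted p ran from 0.0587 (DESeq2) to 0.392 (limma, all 9 libraries in 1 fit). With the replicate block Snail fell (limma adjusted p = 0.00264), and it did so in the blocked edgeR quasi-likelihood test as well (adjusted p = 0.00324). It was lower in 3 of 3 pairs, by log2 changes of −0.32, −0.44 and −0.80, with a mean of −0.52 ± 0.25 (SD over 3 pairs). The blocked limma fit of this comparison used a spread pooled over genes of like level, so the spread of Snail's own pairs does not enter that p. Leaving out pair 1 (limma adjusted p = 0.296) or pair 3 (0.0523) from the blocked fit ended the call. An exact two-sided permutation test of the 6 libraries gave p = 0.1, the smallest that 3 against 3 allows. That test ignores the pairs and could not reach the threshold of 0.05.

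With Etr1>Bra the mean of Snail was 1804 ± 254 against 1908 ± 86.9 in control (SD, n = 3 each). The log2 change of −0.09 ± 0.13 (95% interval −0.38 to 0.21) did not pass the test (limma adjusted p = 1, and 0.786 with the block). The pairs had log2 changes of 0.12, −0.07 and −0.32. In whole embryos, a change in cell number and one in RNA per cell cannot be told apart for any of these genes. Which cells the RNA came from, muscle or other, was not measured.

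**Figure D1:**
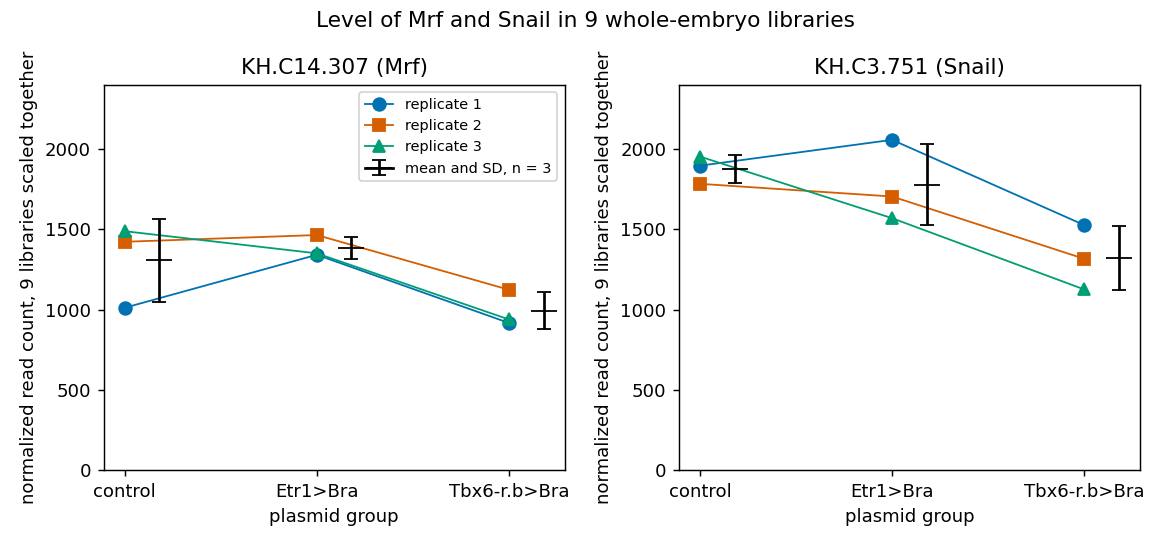
Normalized read counts of KH.C14.307 (Mrf) and KH.C3.751 (Snail) in all 9 libraries scaled together (vertical axis) by plasmid group (horizontal axis). Lines join libraries of the same replicate number, and black marks give mean and SD with n = 3. With Tbx6-r.b>Bra, Snail lies between 1126 and 1527, below every other library, and Mrf between 917.2 and 1124, overlapping only control replicate 1.

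These values stand beside few calls over the whole tables. Without the block limma called 0.533% of 11445 genes with Tbx6-r.b>Bra, 0.0262% as lower. With the block it called 3.9%, and 0.917% (105 genes) as lower. Of the 5 genes, 3 passed the filter of a mean normalized count of at least 10 in that comparison, and 1 of those, Snail, was called with the block. Snail's fall was modest among the 105: 76 of them had a more negative log2 change, and their median was −0.63. Among all genes tested, 1.8% had a log2 change below that of Snail and 3.69% one below that of Mrf, while the median of all genes was −0.02. With Etr1>Bra limma called 0.139% of 11514 genes without the block and 3.88% with it. There 2 of the 5 genes passed the filter and 0 were called. The unadjusted limma p was 0.542 for Mrf and 0.513 for Snail, and the edgeR and DESeq2 tests called neither.

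The plasmids were then compared with each other, which leaves the controls out. In this comparison Mrf and Snail were lower with Tbx6-r.b>Bra than with Etr1>Bra by about the same amount in each pair, and neither passed the test over all genes. With the 9 libraries scaled together, Mrf stood at 917.2, 1124 and 939.1 with Tbx6-r.b>Bra, against 1342, 1465 and 1351 with Etr1>Bra. Snail stood at 1527, 1317 and 1126 with Tbx6-r.b>Bra, against 2058, 1705 and 1570 with Etr1>Bra. For both genes all Tbx6-r.b>Bra libraries lay below all Etr1>Bra libraries, as they did for 2.8% of the 11529 genes tested. Both were lower in 3 of 3 pairs, as were 10.5% of those genes.

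The mean of Mrf was 1386 ± 68.4 with the neural-driven and 993.4 ± 114 with the muscle-driven plasmid (SD, n = 3 each), 28.3% lower in the latter. The log2 difference was −0.48 ± 0.14 (95% interval −0.80 to −0.17), with a limma adjusted p of 1 and, with the block, 0.0898. The differences in pairs 1, 2 and 3 were −0.55, −0.38 and −0.52. Their SD of 0.09 was smaller than the 0.26 of the changes of Mrf against control with Tbx6-r.b>Bra. Across all alternatives that keep the 6 construct libraries, the adjusted p of Mrf ran from 0.0677 to 1.

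The mean of Snail was 1777 ± 252 with the neural-driven and 1323 ± 200 with the muscle-driven plasmid (SD, n = 3 each), 25.5% lower in the latter. The log2 difference was −0.43 ± 0.17 (95% interval −0.79 to −0.06), with a limma adjusted p of 1 and, with the block, 0.204. The pairs differed by −0.43, −0.37 and −0.48, with an SD of 0.05. As in the comparison of Tbx6-r.b>Bra with control, the blocked limma p of both genes rests on the pooled spread, so these small SDs of the pairs do not enter it. Exact two-sided permutation tests gave p = 0.1 for each gene, again the smallest possible, so they could not reach the threshold either. The fall of Snail against control was thus called with Tbx6-r.b>Bra and not with Etr1>Bra, but a difference between the plasmids was not shown at the threshold. Over all genes limma called 0% without the block (351 genes had an unadjusted p under 0.05, the edgeR test called 0 and DESeq2 39) and 2.71% with it, 1.84% as lower with Tbx6-r.b>Bra.

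**Figure D2:**
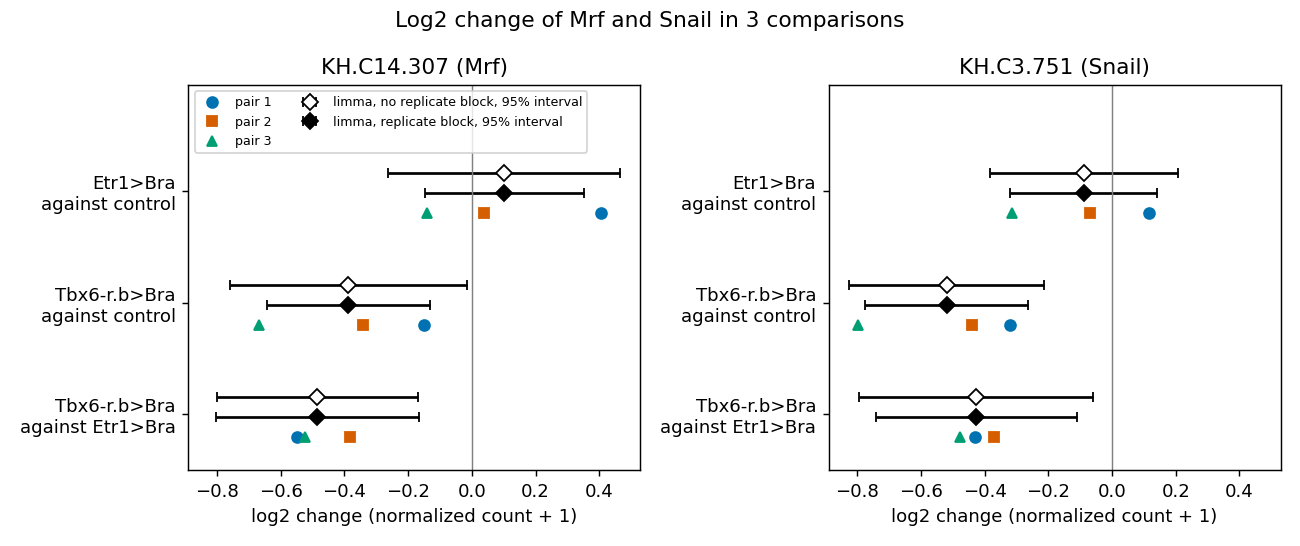
Log2 change of Mrf and Snail (horizontal axis) in the 3 comparisons (vertical axis). Diamonds with bars are limma estimates with 95% intervals, open without and filled with the replicate block, and coloured marks are the changes in each numbered pair. The pair values of the direct comparison lie close together, at −0.55 to −0.38 for Mrf and −0.48 to −0.37 for Snail.

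On the scale of all 9 libraries, both genes were lowest with Tbx6-r.b>Bra. Mrf was highest with Etr1>Bra, then control at 1308 ± 258, then Tbx6-r.b>Bra. Snail was highest in control at 1878 ± 86.5, then Etr1>Bra, then Tbx6-r.b>Bra (SD, n = 3 each). For both genes the 2 upper groups overlapped and did not differ beyond their spread. Within groups the genes also varied differently. The coefficient of variation of Mrf was 19.7% in control, 4.94% in the neural-driven and 11.4% in the muscle-driven group, and that of Snail 4.61%, 14.2% and 15.1%.

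**Figure D3:**
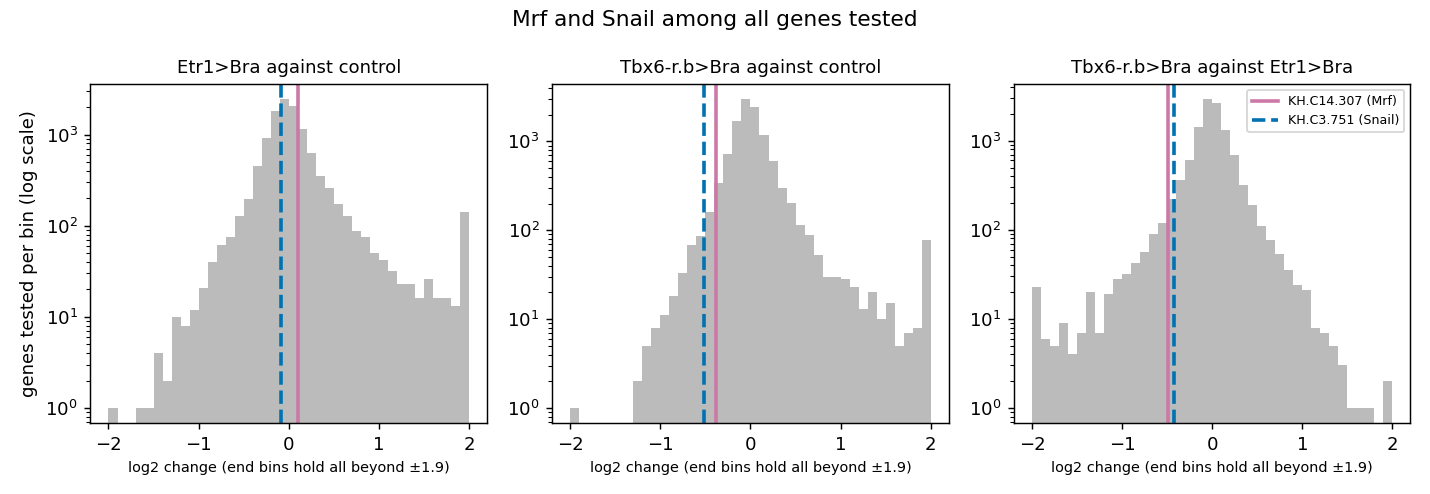
Number of genes tested per bin of log2 change (vertical axis, log scale; horizontal axis, log2 of normalized count + 1) in each comparison, with Mrf as a solid and Snail as a dashed line. Against control, both lines lie near the middle with Etr1>Bra and in the lower tail with Tbx6-r.b>Bra, where 1.8% of genes lie below Snail and 3.69% below Mrf.

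The Tbx6-related models had few reads in all 9 libraries. KH.S654.3, taken as Tbx6-r.b, the gene whose regulatory DNA drove the muscle plasmid, had 12, 13 and 11 reads in control replicates 1, 2 and 3. With Etr1>Bra it had 10, 5 and 7 reads. The Tbx6-r.b>Bra libraries had 11, 10 and 8. In normalized counts each plasmid group overlapped the controls.

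Summed over each group, KH.S654.3 had 36 reads in control, 22 in the neural-driven and 29 in the muscle-driven group. Relative to library totals, the ratio of Tbx6-r.b>Bra to control was 0.863, with an exact binomial 95% interval of 0.51 to 1.45. The ratio of Etr1>Bra to control was 0.604 (0.338 to 1.05), and that of Tbx6-r.b>Bra to Etr1>Bra 1.43 (0.793 to 2.61). All 3 intervals hold 1, and they cover counting error only. KH.S654.3 passed the filter in the Tbx6-r.b>Bra table alone, where its normalized counts were 12.25, 12.22 and 10.34 in control and 11.61, 10.87 and 7.476 with the plasmid. Its log2 change there was −0.22 ± 0.45 (limma adjusted p = 1, and 0.999 with the block).

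KH.S654.2, taken as Tbx6-r.c, had 1, 0 and 2 reads in the control replicates. It had 0, 4 and 0 reads with Etr1>Bra, while the Tbx6-r.b>Bra libraries had 0, 2 and 1. Every group had a library without a read. KH.S654.1, taken as Tbx6-r.d, had 1, 2 and 2 reads in control and 4, 3 and 3 with Etr1>Bra, while the Tbx6-r.b>Bra libraries had 3, 4 and 2. Its Etr1>Bra libraries all lay above its controls, on 10 reads against 5. Of the 11514 genes tested in that comparison, 10.7% had no overlap in one or the other direction. KH.S654.1 is not among these genes, and their share need not hold at so few reads. The ratio was 1.98 with an exact 95% interval of 0.615 to 7.37, and for Tbx6-r.b>Bra, with 9 reads, it was 1.93 (0.58 to 7.33). Neither excludes 1. Both models were under the filter in every comparison.

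The 3 Tbx6-r models together had 44 reads in control, 36 in the neural-driven and 41 in the muscle-driven group. The ratio to control was 0.808 (0.505 to 1.28) with Etr1>Bra and 0.998 (0.636 to 1.56) with Tbx6-r.b>Bra. T-box paralogs can share sequence, and the treatment of reads that match several models is not given in the sources used here. The split of reads between the 3 models and their total are therefore uncertain, since reads that match several models may have been left out.

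**Figure D4:**
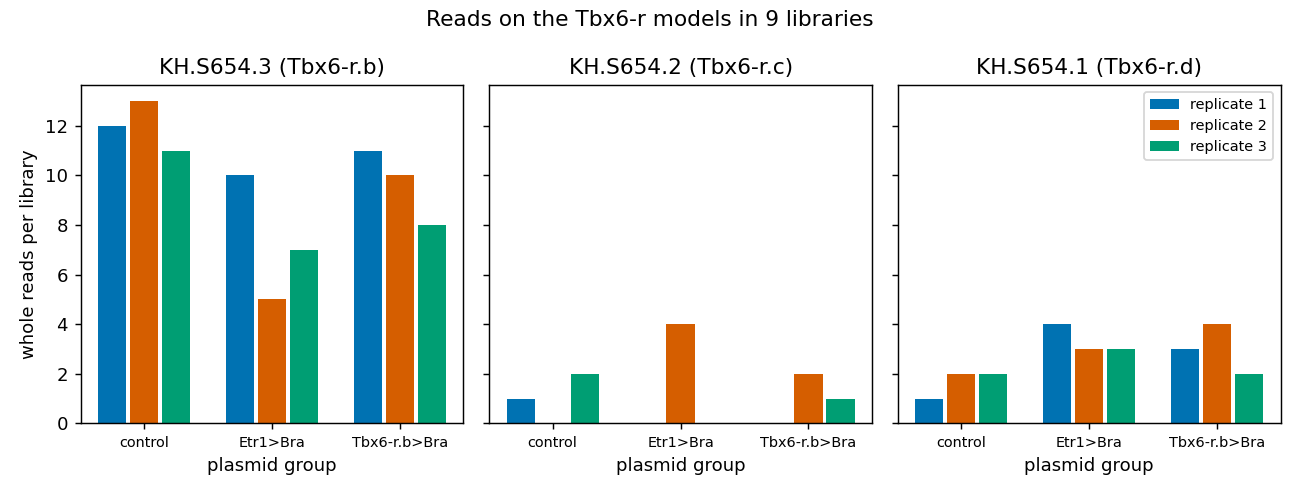
Whole reads per library (vertical axis, from 0) on KH.S654.3, KH.S654.2 and KH.S654.1, taken as Tbx6-r.b, Tbx6-r.c and Tbx6-r.d, by plasmid group (horizontal axis) and replicate number (colour). No library has more than 13 reads on any of these models. In whole reads the Etr1>Bra libraries of KH.S654.3 (5 to 10) lie below its controls (11 to 13), but in normalized counts they overlap. The Etr1>Bra libraries of KH.S654.1 (3 to 4) lie above its controls (1 to 2), on 10 reads against 5. Of the 11514 genes tested in that comparison, which do not include these models, 10.7% had no overlap in normalized counts.

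Of the 5 models on scaffold S654, none of which the tables name, the other 2 had many more reads. KH.S654.4 stood at 551.3, 558.8 and 590.3 normalized counts in control and at 433.4, 557.6 and 536.6 with Etr1>Bra. The Tbx6-r.b>Bra libraries stood at 483.6, 470.6 and 642.9, against 546.2, 552.6 and 584.5 in control in that table. KH.S654.5 ranged from 1408 to 1751 over the 9 libraries scaled together. Their log2 changes with Tbx6-r.b>Bra were −0.09 ± 0.15 for KH.S654.4 and 0.05 ± 0.13 for KH.S654.5 (limma adjusted p = 1 for each). These models overlapped with control under both plasmids.

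The genes whose levels followed Snail and Mrf most closely were found by Pearson's correlation of log2 levels over the 9 libraries, among 11494 genes with a mean of at least 10. The libraries share plasmid groups and replicate numbers, so these values describe likeness and nothing more. The genes were picked for that likeness, so a pattern they share with Snail or Mrf is no separate support for it. Closest to Snail were KH.L31.3 (r = 0.989) and KH.C8.74 (r = 0.974). KH.L31.3 stood at 2136, 2033 and 2145 in control and at 2315, 1861 and 1796 with Etr1>Bra. The Tbx6-r.b>Bra libraries, at 1807, 1452 and 1346, lay below the controls as for Snail. Closest to Mrf were KH.S497.8 (r = 0.913) and KH.C13.182 (r = 0.908). KH.S497.8 ranged only from 12.68 to 25.02 over the 9 libraries, near the filter of 10. KH.C13.182 stood at 150.3, 169.2 and 167.2 in control and at 169.9, 177.5 and 164.0 with Etr1>Bra. The Tbx6-r.b>Bra libraries stood at 133.1, 164.6 and 146.3, and control replicate 1 was low as for Mrf. Mrf and Snail correlated at 0.589. Closer to Mrf than Snail was were 260 other genes, and closer to Snail than Mrf was were 567.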

How the data were processed

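Whole-embryo RNA was sequenced from stranded mRNA libraries, per the labels' protocols. Per the file headers, the authors deposited a signal, read counts normalized to library size, together with regularized log2 values. Per the submitters' processing notes, the tools included TopHat2 2.9.8b and DESeq 1.8.1. Neither the genome build nor the counter and its use of strand is given in these sources. Reads of antisense, overlapping or near-identical genes may therefore be mixed.

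Within each library 100% of the deposited values were whole multiples of the smallest (tolerance 0.01), which gave whole reads. The control reads differed between the tables in 0 values. Recomputed median-of-ratios factors equalled the deposited ones to a relative difference of 4.28e-10. Libraries held 9043181 to 10399304 reads. No library was a copy of another (chi-square per gene 6.67 to 44.8 over all 36 pairs of libraries, where sampling noise gives about 1).

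Each comparison was fitted on log2(normalized count + 1) with limma 3.58.1 in R 4.3.3, trend included, for genes with a mean of at least 10, without a block, with two-sided Benjamini-Hochberg adjustment over all genes and a threshold of 0.05. Such fold changes understate the change of low genes. For the comparison between plasmids, recovered reads of the 9 libraries were scaled together. edgeR 4.0.16 and DESeq2 1.42.0 were run on the reads as alternatives, beside TMM scaling, pseudocounts of 0.5 and 5, no filter, the regularized values, all 9 libraries in 1 fit and leaving out libraries. Simulated reads with known changes were run through limma and edgeR, each with and without the block, and through DESeq2. The outcome is not given here.

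Replicate numbers come from the titles, which do not say what they share. Over 11494 genes, the correlation of deviations from the group means was 0.48 to 0.72 for libraries that share a number and −0.42 to −0.1 for others, so the numbers were taken to pair the samples and blocked values are given where they change a call. The genes were chosen with earlier results of these data known. All 5 are named whatever their values, with the models next to them on scaffold S654 and the 2 genes most alike to each gene with a mean of at least 10.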

Additional observations from a re-analysis of the deposited data

How the results depend on the processing

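Snail with Tbx6-r.b>Bra kept a negative log2 change under every alternative run, and its call rested on the pairing: it passed with the replicate block in limma (−0.52, adjusted p = 0.00264), in edgeR (−0.52, 0.00324), in the fit of all 9 (−0.51, 0.0232) and with the block and no replicate 2 (−0.56, 0.00216), with −0.62 to −0.38 over the blocks that leave out 1 number. Without the block it passed nowhere (DESeq2 adjusted p = 0.0587; −0.63 to −0.41 and adjusted p of 0.131 to 0.852 when 1 library was left out). Mrf with Tbx6-r.b>Bra stayed negative and uncalled under every alternative, from −0.56 to −0.24. With Etr1>Bra the signs were not stable: Mrf was −0.07 without control replicate 1 and −0.05 in the block without replicate 1 (−0.07 to 0.20 and −0.05 to 0.22 over the libraries and numbers left out), and Snail was 0.02 in the block without replicate 3 (−0.19 to 0.02). The replicate block changed no other call of these genes. Without a filter KH.S654.1 had a log2 change of 0.64 with Tbx6-r.b>Bra, against a log2 ratio of reads of 0.95. KH.S654.2, on 3 to 4 reads a group, changed sign: from a log2 ratio of 0.40 to a log2 change of −0.08 with Etr1>Bra, and from −0.30 to 0.10 between the plasmids. These values differ in how they are computed. The log2 change compares group means of log2(normalized count + 1), and the log2 ratio compares summed reads relative to library totals, with nothing added.

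The number of genes called over the whole tables moved most. With Etr1>Bra it was 16, and 447 with the replicate block, 475 with edgeR and the block, 576 and 88 in all 9 libraries with and without it, 294 with DESeq2 and 0 with the regularized log2 values (724 at an unadjusted limma p under 0.05). Leaving out 1 library gave 0 to 170, and leaving out number 1, 2 or 3 from the block 1233, 8 or 332. With Tbx6-r.b>Bra it was 61, and in the same order of settings 446, 444, 237, 26 and 140, with 14 to 94 for 1 library left out and 270, 296 or 483 for 1 number. Between the plasmids it was 0, and 313 with the block, 306 with edgeR and the block, 133 in all 9 libraries with the block and 39 with DESeq2, with 0 to 72 and 203, 0 or 61 for those left out. The Tbx6-r models had at most 13 reads in a library, which limits what could be detected in them; whether reads shared between models were left out is not known here.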
